A study of Mus musculus with 12 samples.

Results

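Paneth cell defensins and granule genes were taken as every gene of the expected-count table whose symbol begins with Defa, together with Lyz1, Mmp7, Ang4, Itln1, Mptx1 and Mptx2. These are 45 of the 53715 genes in the table: 39 Defa genes, of which 22 are annotated as protein coding and 17 as pseudogenes, and the 6 other granule genes. Paneth cells sit at the base of the crypts of the small intestine, between the stem cells, and release granules filled with antimicrobial proteins into the crypt lumen. The healthy mouse colon lacks them, so their products mark the small intestinal crypt. The α-defensins, called cryptdins in mice, are short cationic peptides that disrupt bacterial membranes and are stored in these granules beside lysozyme.

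RNA came from ileal and colonic mucosa of male C57BL/6J mice aged 8 weeks, with 3 libraries in each of 4 groups. The control mice are labelled Slc39a8-fl/fl, floxed at the gene for the metal importer SLC39A8, although by the methods of the study its controls also included wild-type and Villin-Cre animals. The Slc39a8-IEC KO mice (KO) carry the same floxed alleles with Villin-Cre, which is active in intestinal epithelial cells, Paneth cells included. Libraries were primed with oligo-dT and hold all cell types of the mucosa, and the labels do not say whether ileum and colon came from the same mice.

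The libraries held 16749138 to 27903083 expected counts. Levels are given as CPM, the counts of a gene per 1000000 counts of the scaled library. Slc39a8 itself was measured at 8.39, 5.22 and 6.59 CPM in the ileal control libraries against 4.35, 2.62 and 2.80 in the ileal KO libraries, and at 20.1 to 20.8 in colonic control against 7.35 to 11.5 in colonic KO libraries. The ileal libraries from control replicate 3 and KO replicate 1 stood apart. All 6 smooth muscle genes of a marker list were lower in both than in the other 4 ileal libraries, with sums of 34.2 and 20.2 CPM against 1814 to 2643. Values with and without this pair are given where they differ.

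The Defa genes all lie on chromosome 8. In the GENCODE M21 annotation of GRCm38, the protein-coding ones form a cluster that runs from Defa21, which starts at position 21025545, to Defa24, which ends at 21735471, and each has 2 exon blocks. Outside this cluster, Lyz1 is at chr10:117287797-117292868, Mmp7 at chr9:7692090-7699585, Ang4 at chr14:51763878-51773590, Itln1 at chr1:171518122-171535294, Mptx2 at chr1:173274382-173277777 and Mptx1 at chr1:174330518-174332873. Many Defa genes are near-identical copies of each other. All windows of 150 bases, the read length, in the annotated transcript of Defa2 also occur in another gene, as do all those of Defa33, Defa37 and Defa31 and 99.6% of those of Defa20 and Defa32. For Defa24, Defa30, Defa29, Defa26 and Defa35, and for each of the 6 granule genes outside the cluster, no window was shared. Values of Defa2 and its near copies are therefore uncertain one by one, and none of the 12 counts of Defa2 or of Defa20 was a whole number, whereas those of the 6 other granule genes were whole in every library. Defa24 and Defa30 each had 4 counts that were not whole, and Defa35 had 2. Counts of Defa genes without a shared window were thus not always whole.

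The copies extend into the promoters. RefSeq entries of GRCm38.p6 that span 250 bases before to 50 bases after the start of a gene were found for 12 Defa genes and the 6 other granule genes. The stretches below run from 160 bases to 1 base before the RefSeq start, on the strand of the gene. They show the promoter types within the cluster, with 2 motifs in capitals: ATCAAAG, which is CTTTGAT read on the other strand and the core bound by the TCF/LEF partners of β-catenin in Wnt signalling, and TATAAA, the core of a TATA box. Defa22 is at chr8:21162117-21162276, Defa20 at chr8:21509098-21509257, Defa23 at chr8:21054880-21055039, Defa37 at chr8:21565226-21565385, Defa30 at chr8:21134490-21134649 and Defa28 at chr8:21582867-21583026, all on the plus strand. The last, Gm14851 at chr8:21096051-21096210 on the minus strand, is a related gene that RefSeq names Defa38.
Defa22: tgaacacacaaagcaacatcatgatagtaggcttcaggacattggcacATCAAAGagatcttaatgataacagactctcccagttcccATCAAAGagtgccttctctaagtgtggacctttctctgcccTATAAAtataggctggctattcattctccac
Defa20: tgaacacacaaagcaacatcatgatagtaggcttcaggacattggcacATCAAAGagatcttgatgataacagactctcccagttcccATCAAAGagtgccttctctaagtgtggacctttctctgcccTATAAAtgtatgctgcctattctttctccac
Defa23: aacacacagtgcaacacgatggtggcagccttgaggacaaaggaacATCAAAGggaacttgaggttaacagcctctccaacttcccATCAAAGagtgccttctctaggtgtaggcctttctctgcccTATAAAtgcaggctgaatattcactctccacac
Defa37: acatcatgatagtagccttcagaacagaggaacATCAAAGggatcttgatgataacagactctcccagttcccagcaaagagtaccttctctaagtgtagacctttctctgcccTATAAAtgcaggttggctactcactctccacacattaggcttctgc
Defa30: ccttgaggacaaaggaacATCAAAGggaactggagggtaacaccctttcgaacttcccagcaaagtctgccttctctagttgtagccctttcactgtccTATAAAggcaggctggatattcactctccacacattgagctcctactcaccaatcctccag
Defa28: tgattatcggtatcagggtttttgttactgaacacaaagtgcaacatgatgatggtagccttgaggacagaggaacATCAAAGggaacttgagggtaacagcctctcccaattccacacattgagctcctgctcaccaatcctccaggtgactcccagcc
Gm14851: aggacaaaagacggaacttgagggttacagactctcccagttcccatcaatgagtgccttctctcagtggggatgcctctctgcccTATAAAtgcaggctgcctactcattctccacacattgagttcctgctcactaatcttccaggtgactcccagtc

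CTTTGAT, searched on both strands, occurred in 12 of the 12 Defa promoters, against 3.73% of all 32851 promoters of the same length. Of these, 8 held 2 matches, 40 bases apart in each, as in Defa22, Defa20 and Defa23. The other 4 (Defa30, Defa36, Defa37 and Defa28) held 1 match. All lay 70 to 142 bases before the start. TATAAA, searched on the strand of the gene, occurred in 11 of the 12 Defa promoters, with Defa28 as the exception, against 8.32% of all promoters. It does not overlap CTTTGAT. Among 5 related genes of the cluster with an entry, CTTTGAT was found in 1 (Gm15293) and TATAAA in 4. Of the 6 granule genes elsewhere, Mmp7 alone held either motif. Promoters of Defa2, Defa20 and Defa32 were identical where they overlap, as were those of Defa21 and Defa22, of Defa23 and Defa31, and of Defa36 and Defa37, so the 12 entries are not independent of each other. A match to these letters is a description and not evidence of binding.

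In ileum, Defa transcripts made up 0.85%, 1.57% and 2.73% of all counts in the control libraries and 2.22%, 1.65% and 1.31% in the KO libraries. Their summed level was 10250, 18296 and 26959 CPM in control (mean 18502 ± 8356, SD, n = 3) and 22148, 18041 and 14762 CPM in KO (mean 18317 ± 3701). The KO libraries lay within the range of the control libraries. In colon, the same sum was 5.27, 11.7 and 4.28 CPM in control and 7.30, 3.16 and 1.70 CPM in KO, from 41 to 243 counts per library. The ileal mean was 2616 times the colonic mean in control mice and 4517 times in KO mice. Leaving out 1 library, a comparison chosen after seeing the data, gave 2018 to 3872 times in control mice. In KO mice it gave 3501 times without colonic KO replicate 3 to 7536 times without colonic KO replicate 1. These ranges overlapped, and this sum was not tested.

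Per kilobase of exon, Defa24 had the highest level in ileum, with 7417 CPM per kb in control and 7891 in KO. It shares no window with another gene and made up 15.7% to 19.5% of the Defa counts of each ileal library. Defa2 (4705 CPM per kb in control), Defa20 (4647), Defa23 (3574), Defa22 (3374), Defa33 (3066), Defa21 (2965), Defa32 (2807) and Defa30 (2776) followed. Lyz1, which encodes the Paneth cell lysozyme, had 2657 CPM per kb and so lay below 9 of the defensin genes by this measure. Its mean CPM per gene in ileal control was the highest, at 3356, but this rested on the low-muscle library. Without the low-muscle pair it was 1862 CPM, below the 2556 of Defa24. In ileal KO libraries, all included, Lyz1 had 3169 CPM and Defa24 3306. Itln1 had 1085 CPM per kb, Ang4 413, Mptx2 137, Mmp7 113 and Mptx1 3.01. Over the control libraries the ranges of neighbours in this order overlapped from Defa24 down to Defa26. Only Defa35, Defa-ps6 and Mptx1, the last in the order, each lay wholly below the gene before it.

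Not every annotated defensin gene was seen. Counts were 0 in all 12 libraries for 15 Defa genes, of which 14 are pseudogenes and 1 is the coding gene Defa25. Defa27, Defa28 and the pseudogenes Defa-ps1 and Defa-ps18 stayed below 1 CPM in every library. Defa28 was measured at 0.13 to 0.94 CPM in ileum, and its promoter has 1 CTTTGAT match and no TATAAA. Defa30, also with 1 match but with TATAAA, was at 596 to 1431 CPM. Defa35, with 2 matches and TATAAA, was at only 8.19 to 11.5 CPM. Any relation of motifs to levels was not tested, and Defa24 had no promoter entry. Defa31 had no count in any ileal library and 5 counts in colonic KO replicate 3. Each of its 228 windows also lies in Defa23, whose promoter has the same bases, so counts of the pair cannot be told apart. Together, Defa23 and Defa31 had 1469 ± 645 CPM in ileal control and 1475 ± 105 in ileal KO libraries (n = 3 each). After the filter on low counts, 25 of the 45 genes were tested: 18 coding Defa genes, the pseudogene Defa-ps6 (1.41 to 3.67 CPM in ileum, 0 in colon) and the 6 others.

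**Figure D1:**
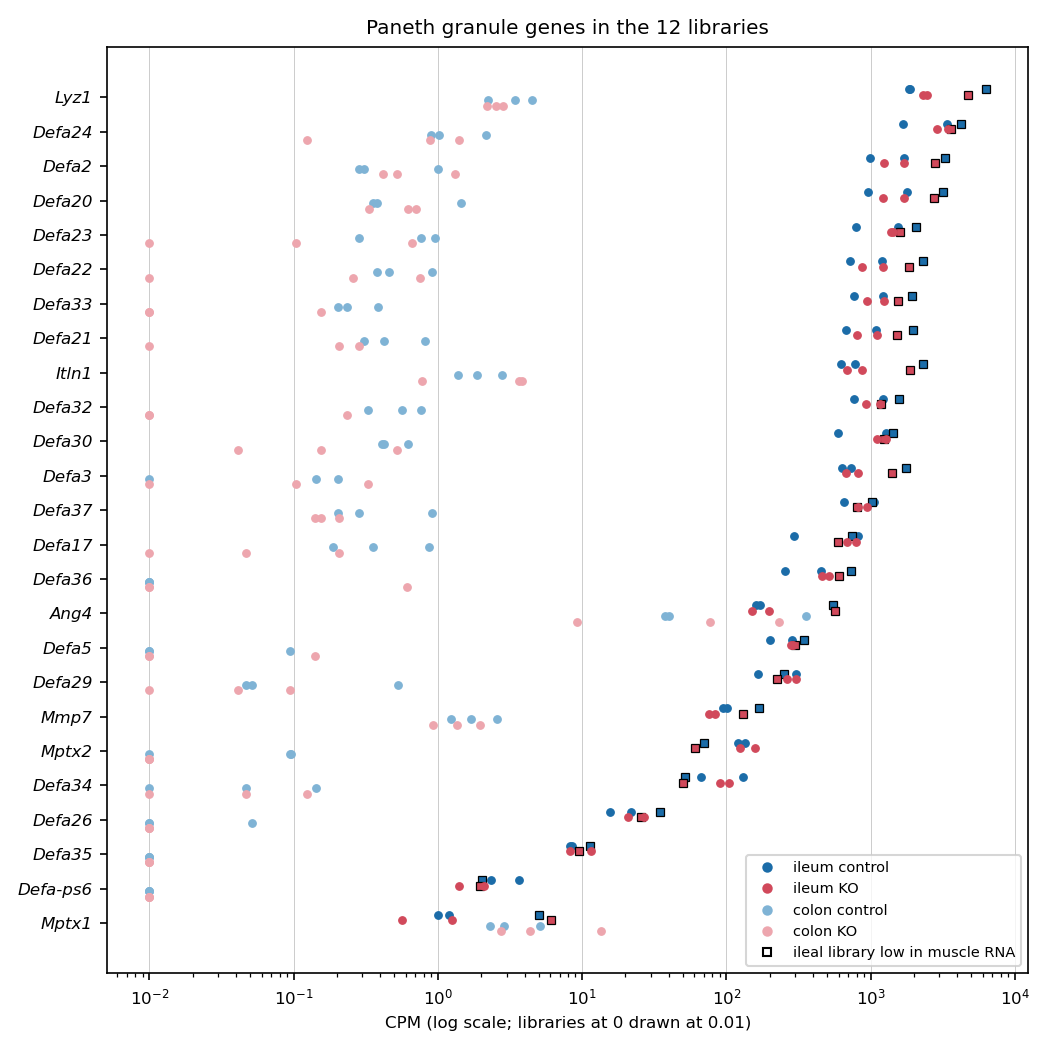
Level of each tested Paneth granule gene in the 12 libraries, in CPM on a log axis, 1 point per library, coloured by group, with libraries at 0 drawn at 0.01 and squares for the ileal libraries low in muscle RNA. Ileal and colonic points are separate for 23 genes and overlap for Ang4 and Mptx1.

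Between tissues, nearly all of these genes were lower in colon. With edgeR's quasi-likelihood test and Benjamini-Hochberg adjustment over 16558 genes at a threshold of 0.1, 23 of the 25 were lower in colon in control mice and 0 were higher, where 35.9% of all tested genes were called, 16.2% higher and 19.6% lower. In KO mice 23 of 25 were again lower, against a background of 37.1% called, 17.1% higher and 20% lower. The same 23 had colonic libraries wholly below the ileal ones in both genotypes, beside 20.4% of all tested genes in control and 24.9% in KO mice. The same 2 genes, Ang4 and Mptx1, were not called in either genotype. Genes with few or no colonic counts passed the filter on low counts through their ileal level. Lyz1, Mmp7 and Itln1, with 15 to 94 counts per colonic library, did not depend on it. All were chosen as products of a cell of the small intestine. The count of 23 could therefore hardly have come out otherwise, and it does not serve as support. Fewer Paneth cells and less RNA per cell cannot be told apart in bulk tissue.

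Defa24 was measured at 1687, 3407 and 4230 CPM in the ileum of control mice and at 3622, 3425 and 2872 CPM in that of KO mice. In colon it was at 1.02, 2.16 and 0.89 CPM in control and 1.41, 0.88 and 0.12 in KO. The log2 difference, colon minus ileum, was -11.15 ± 0.75 (SE) in control (adjusted p = 1.14e-06 in edgeR). No colonic library came near an ileal one. In KO mice the difference was -12.02 ± 0.78, and -12.75 without colonic KO replicate 1.

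Defa2 and Defa20, the next most abundant in colon, were at 0.28 to 1.44 CPM in all 6 colonic libraries and at 958 to 3302 CPM in ileum. Their differences in control were -11.86 ± 0.81 and -11.39 ± 0.77 on the log2 scale (adjusted p = 1.19e-06 and 1.14e-06 in edgeR), and without colonic control replicate 2 they were -12.70 and -12.37. In KO mice, Defa2 had -11.31 ± 0.78, or -12.02 without colonic KO replicate 1.

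The other defensins among the 8 with the highest ileal CPM (Defa23, Defa22, Defa33, Defa21 and Defa32) had 672 to 790 CPM in ileal control replicate 1, 1092 to 1543 in replicate 2 and 1586 to 2318 in replicate 3. In ileal KO libraries these were 1180 to 1836, 1107 to 1442 and 810 to 1390 CPM. Control replicate 1 was the lowest of the 6 libraries for each of the 5, and control replicate 3 the highest. In colon none of them passed 1 CPM, and colonic KO replicate 3 had no count assigned to any of them. In that library Defa31, whose windows all lie in Defa23, had 5 counts. Defa2 and Defa20, near copies of Defa33 and Defa32, had 9.53 and 8.47 there, and how reads were divided between copies is not known. Where colonic counts are this few, single libraries set the fitted difference. In KO mice it moved from -12.49 to -14.79 for Defa23, from -11.94 to -13.40 for Defa22, from -12.79 to -13.52 for Defa21 and from -13.67 to -17.45 for Defa32 without colonic KO replicate 1, and from -14.52 to -17.64 for Defa33 without replicate 2. Without colonic KO replicate 3 these were -11.86, -11.31, -12.16, -13.04 and -13.91 in the same order.

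The less abundant defensins that share no window gave the same separation. Defa30 was at 596 to 1431 CPM in ileum and 0.042 to 0.62 in colon, Defa29 at 167 to 305 and 0 to 0.53, and Defa26 at 15.6 to 34.5 and 0 to 0.051. Defa36 and Defa35 had no count in colonic control libraries, which puts their ileal level at least 9868-fold and 192-fold higher against a floor of 3 counts over the group. Yet Defa36 had 13 counts in colonic KO replicate 1 alone (0.61 CPM), and 93.7% of its windows lie in Defa37, which had counts in all 6 colonic libraries. Defa26 had 1 count in colon, giving a ratio of 1404 in control with a counting interval of 265 to 58300.

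Lyz1 was measured at 1839, 1868 and 6360 CPM in the ileum of control mice and 4742, 2459 and 2307 CPM in that of KO mice. Colonic libraries held 2.20 to 4.51 CPM. The difference in control was -9.95 ± 0.69 on the log2 scale (adjusted p = 1.4e-06 in edgeR), or -9.11 without ileal control replicate 3. Lyz2, the lysozyme gene of macrophages, was not called between tissues (log2 difference -0.12 ± 0.40 in control, adjusted p = 0.86 in edgeR).

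Itln1, which encodes a lectin that binds microbial glycans, was at 625, 780 and 2311 CPM in the ileum of control mice and 1866, 873 and 688 CPM in that of KO mice, against 0.78 to 3.82 CPM in colon. Its difference in control was -9.26 ± 0.85 on the log2 scale (adjusted p = 1.24e-05 in edgeR), and -8.46 without ileal control replicate 3. Mmp7 encodes matrilysin, the protease that cuts mouse prodefensins to their active form. It had 101, 95.1 and 167 CPM in the ileum of control mice, 131, 83.1 and 75.5 CPM in that of KO mice and 0.93 to 2.59 CPM in colonic libraries. The ileal mean of Mmp7 was 65.9 times the colonic mean in control and 68.2 times in KO, a far smaller ratio than the 992 and 1257 of Lyz1 or those of the defensins. Mmp7 is also on the marker list used here for colonic deep crypt secretory cells. Where its colonic counts came from was not tested.

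Mptx2, a mucosal pentraxin, was at 121, 135 and 69.6 CPM in the ileum of control mice and 60.9, 124 and 159 CPM in that of KO mice. It had 4 counts over the colonic control libraries, a ratio of 1714 with a counting interval of 653 to 6140, and 0 over the colonic KO libraries, which makes the ileal level in KO mice at least 2465-fold higher. Pooled over libraries, Defa24 made up 19.3% of Defa counts in colon and 17.5% in ileum, Defa20 11.6% and 10.5%, and Defa23 8.23% and 8.02%. Other pooled shares were further apart, at 2.91% in colon and 6.91% in ileum for Defa33, 2.33% and 5.44% for Defa3, 0.67% and 1.53% for Defa5, and 1.20% and 0.44% for Defa34. Single colonic libraries varied widely, from 7.32% to 28.3% for Defa24 and from 0% to 14.6% for Defa23. These shares rest on few colonic counts, and where the colonic counts came from was not tested.

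Ang4 and Mptx1 were the exceptions. Ang4 encodes a ribonuclease of the angiogenin family with activity against microbes, and goblet cells as well as Paneth cells are known to make it. It was measured at 172, 160 and 545 CPM in the ileum of control mice and 563, 197 and 150 CPM in that of KO mice. Colonic control libraries had 37.5, 359 and 40.0 CPM, and colonic KO libraries 230, 9.17 and 77.4 CPM. The tissues overlapped in both genotypes, and the difference in control was -1.01 ± 1.09 on the log2 scale (adjusted p = 0.52 in edgeR). It was -2.92 without colonic control replicate 2 (adjusted p = 0.10) and -0.22 without ileal control replicate 3 (adjusted p = 0.91). The summed level of 7 goblet cell genes varied far less over the colonic control libraries, from 9891 to 11210 CPM. That of Reg4 and Kit, the 2 deep crypt secretory genes of the list besides Mmp7, ran from 39.8 to 45.9 CPM.

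Mptx1, a paralog of Mptx2 on the same chromosome, had 1.20, 1.0 and 5.01 CPM in the ileum of control mice and 6.14, 1.25 and 0.57 CPM in that of KO mice. In colon it had 2.87, 5.13 and 2.31 CPM in control and 4.33, 2.75 and 13.6 CPM in KO. The difference was 0.49 ± 0.89 on the log2 scale in control and 1.40 ± 0.89 in KO (adjusted p = 0.71 and 0.27 in edgeR). Without the ileal pair low in muscle RNA, Mptx1 was called higher in colon, with differences of 1.62 in control (adjusted p = 0.093) and 2.91 in KO (adjusted p = 0.0065). In KO mice this also held when ileal KO replicate 1 alone was left out (2.90, adjusted p = 0.038). Without colonic KO replicate 3, the library at 13.6 CPM, the KO difference was 0.42 (adjusted p = 0.78), and without ileal control replicate 3 the control difference was 1.62 (adjusted p = 0.25).

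**Figure D2:**
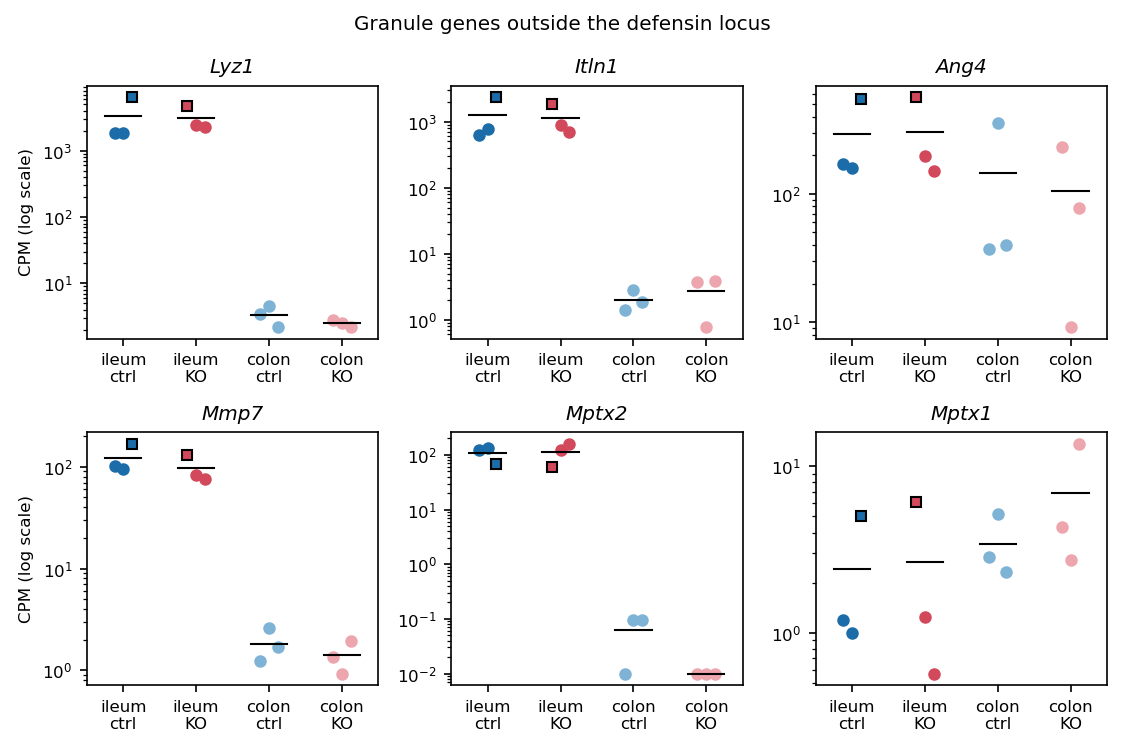
Levels of the 6 granule genes outside the defensin cluster in CPM on log axes, 1 point per library, with a line at the mean of each group of 3, libraries at 0 drawn at 0.01, and squares for the ileal libraries low in muscle RNA. Lyz1, Itln1, Mmp7 and Mptx2 separate the tissues, whereas Ang4 and Mptx1 overlap between them.

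Genes related to the defensins and to Paneth cells were compared in the same way. A list of cryptdin-related genes, which carry other names in the annotation, matched 7 genes. In both genotypes 6 of 6 tested were lower in colon, beside 19.6% of all tested genes in control and 20% in KO mice. Colonic libraries lay wholly below the ileal ones for 5 of the 6 in each genotype, beside 20.4% in control and 24.9% in KO mice. Among them, AY761184 was at 140, 327 and 292 CPM in ileal control libraries and at 0.051 to 0.096 CPM in colonic control libraries, and Gm14851, whose promoter is shown above, at 186, 241 and 429 CPM against 0.047 to 0.14 CPM. Gm15292 (12.1 to 20.8 CPM in ileum) had no count in colon. These 6 also passed the filter through ileum. Of 43 β-defensin genes, which serve other epithelia, 1 was tested, Defb37, and it was higher in colon in control mice (log2 difference 2.31 ± 0.62, adjusted p = 0.017 in edgeR) and not called in KO mice (0.98 ± 0.60, adjusted p = 0.25). This difference between genotypes was not called when tested itself (adjusted p = 1).

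Of 13 other Paneth products and niche signals, 7 were lower and 2 higher in colon in control mice, and 7 were lower and 4 higher in KO mice, beside 19.6% lower and 16.2% higher over all tested genes in control and 20% and 17.1% in KO mice. Slc30a2, which encodes the zinc transporter of Paneth granules, was at 39.8, 46.9 and 60.1 CPM in ileal control libraries and 0.51, 0.77 and 0.80 CPM in colonic control libraries. Pla2g2a, a secreted phospholipase gene, was at 8.65 to 26.8 CPM in ileal control and 0.094 to 0.62 CPM in colonic control libraries. Nupr1, which encodes a stress-induced chromatin protein, went the other way, with 30.7 to 38.9 CPM in ileal control and 387 to 588 CPM in colonic control libraries. Of 17 regulators of Paneth cells, 2 were higher and 2 lower in colon in control mice and 3 higher and 1 lower in KO mice, which is near or below the same shares of all tested genes. Their median log2 difference in control mice was 0.02 beside 0.02 over all tested genes. Bhlha15, a transcription factor gene of secretory cells, was lower (2.13, 8.55 and 9.99 against 0.61, 0.58 and 0.28 CPM). Spdef, a factor of goblet and Paneth cell maturation, was higher in colon (17.2 to 25.5 against 31.1 to 54.7 CPM). Xbp1, which encodes a transcription factor of the unfolded protein response, was lower in colon in control mice (log2 difference -0.79 ± 0.19, adjusted p = 0.0093 in edgeR) and not called in KO mice (-0.39 ± 0.19, adjusted p = 0.14), and the difference between genotypes was not called (adjusted p = 1).

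The 6 ileal libraries differed among themselves more than the genotypes did, and not in the same way for each gene. Of the 25 tested genes, 15 were higher in both low-muscle libraries (ileal control replicate 3 and KO replicate 1) than in the other 4, 2 were lower in both and 8 were neither, beside 23.2% higher and 27.2% lower in both over all tested genes. The pair was defined by its muscle transcripts, 1 library from each genotype, and no test was made. The mean of the pair over that of the other 4 was 2.62 for Lyz1, 2.82 for Itln1, 3.27 for Ang4, 5.55 for Mptx1 and 1.68 for Mmp7. It was 1.38 for Defa24, 1.25 for Defa30, 1.42 for Defa26, 1.15 for Defa35 and 0.91 for Defa29, the coding defensin genes that share no window. Mptx2 (0.48) and Defa34 (0.52) were lower in both libraries of the pair.

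Near-identical genes gave unlike ratios when counted one by one. Defa3 had a ratio of 2.23 and Defa17, with which it shares 84.3% of its windows, 1.03, while the sum of these genes had 1.66. Defa34 and Defa5 had 0.52 and 1.22, and their sum 1.03. The sums of Defa2 with Defa33 (1.96) and of Defa20 with Defa32 (1.78) were above those of Defa23 with Defa31 (1.42) and of Defa36 with Defa37 (1.22). Lyz1, Itln1 and Ang4 thus had ratios above those of every Defa gene or sum, at least 2.62 against at most 2.23.

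**Figure D3:**
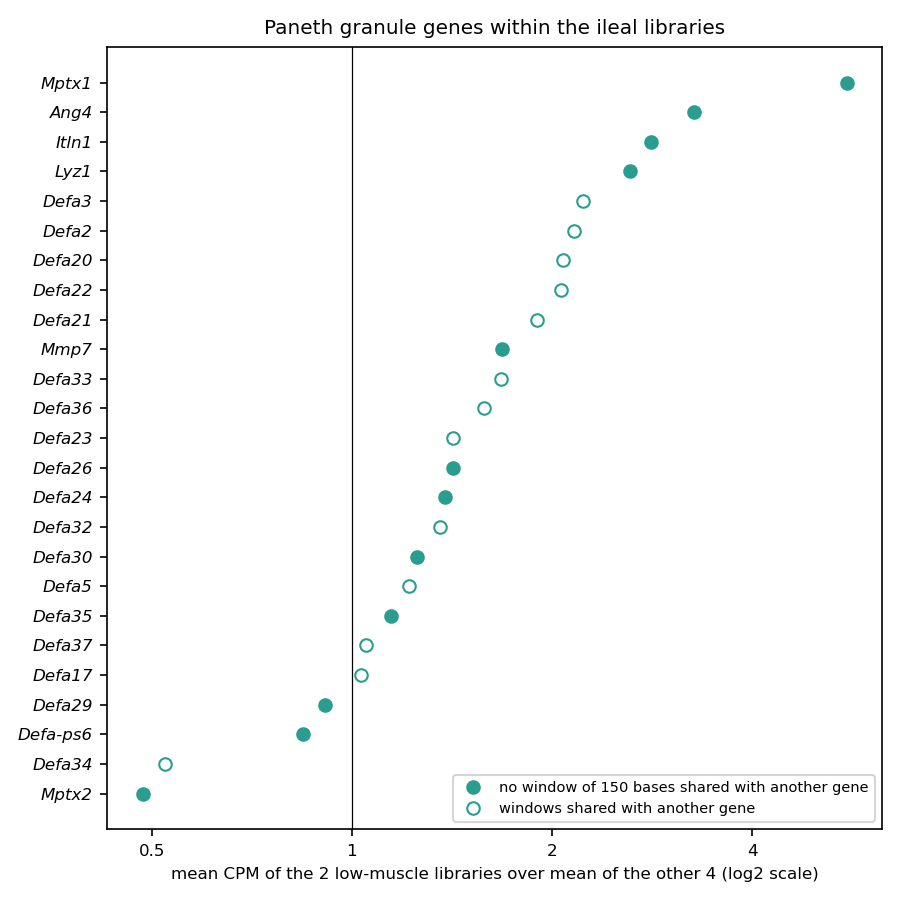
Mean CPM of the 2 ileal libraries low in muscle RNA divided by the mean of the other 4, for each tested gene on a log2 axis, with filled points for genes that share no window of 150 bases with another gene. Ratios run from 0.48 for Mptx2 to 5.55 for Mptx1, and the line marks equal means.

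Other transcripts moved with this pair of libraries, beside 23.2% of all tested genes higher in both and 27.2% lower. Of 5 stem cell genes of the crypt base, 3 were higher in both, with sums of 867 and 631 CPM against 199 to 256, and Olfm4 had 751 and 523 CPM against 105 to 181. Plasma cell genes (2 of 3 lower in both) summed to 383 and 386 CPM in the pair and 670 to 1114 in the others. Macrophage genes (2 of 4 lower) summed to 56.1 and 53.2 against 95.4 to 127. Goblet cell genes (3 of 7 higher, 1 lower) summed to 17170 and 17450 against 14370 to 15220. The summed enterocyte genes overlapped, although 2 of 7 were higher in both and 1 lower. The summed Paneth regulators overlapped too, with 10 of 17 higher in both and 4 lower. The summed cryptdin-related genes had 3175 and 2652 CPM against 1490 to 2394 (3 of 7 higher in both). The summed other Paneth products lay below, with 1173 and 979 CPM against 1257 to 1508, although 8 of the 13 were higher in both and 4 lower. The epithelial markers also lay below, with 13020 and 13820 CPM against 14700 to 16850 (2 of 4 lower in both). Their part in the levels of the granule genes was not tested.

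KO and control mice were then compared within ileum. None of the 25 genes was called by edgeR (0 of 25), and none had an unadjusted p under 0.05, beside 1.52% of all tested genes. No gene was called by edgeR among all 16558 (a background of 0%). Slc39a8, the deleted gene, was not called either, at a log2 difference of -1.05 with an unadjusted p under 0.05. The lack of calls therefore says little about changes of that size. DESeq2 called 2 genes and limma-voom 1 among all tested, and 0 of the 25. Over the 25, log2 differences, KO minus control, ran from -0.56 (Defa-ps6) to 0.16 (Defa17). Their median was -0.03, beside -0.002 over all tested genes. KO and control libraries overlapped for each of the 25, where 3.7% of all tested genes did not overlap.

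Lyz1 differed by -0.08 ± 0.47 on the log2 scale, with a 95% interval of -1.10 to 0.94, and Defa24 by 0.09 ± 0.48, with an interval of -0.97 to 1.14. These intervals show how uncertain the differences are with 3 libraries per group. They are not a limit of detection, and changes beyond them could also go uncalled. Mmp7 had -0.33 ± 0.31 (interval -0.997 to 0.34), Mptx2 0.08 ± 0.36 (-0.73 to 0.88), Itln1 -0.12 ± 0.58 (-1.39 to 1.16) and Ang4 0.05 ± 1.07 (-2.30 to 2.41). The intervals were narrowest for Defa35 (-0.53 to 0.67) and Defa37 (-0.72 to 0.56).

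**Figure D4:**
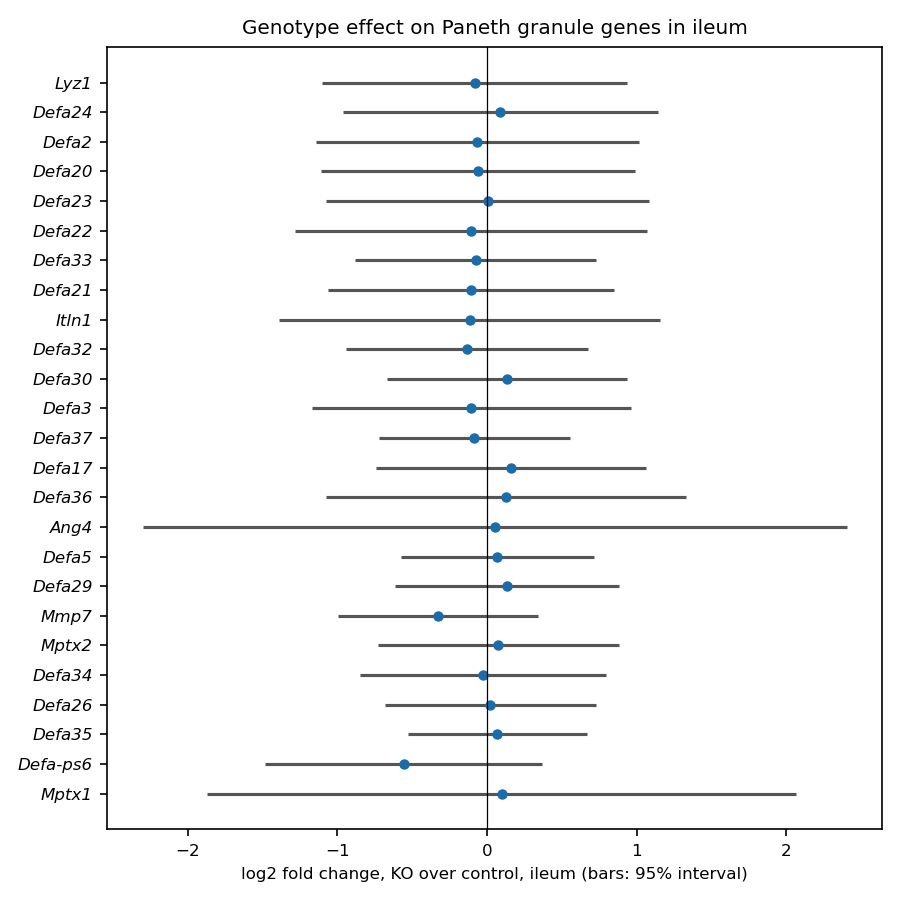
Log2 difference between KO and control in ileum for each tested gene, with 95% intervals from edgeR as bars and 3 libraries per group. Every interval crosses 0, and those of Ang4 (-2.30 to 2.41) and Mptx1 (-1.87 to 2.07) are the widest.

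Within the low-muscle pair the KO library was below the control library for 23 of the 25 genes, whereas in the other 4 libraries the KO mean was above the control mean for 21, and 20 genes did both. Lyz1 had a KO to control ratio of 0.75 in the pair and 1.29 in the others, and the summed Defa genes 0.82 and 1.15. These are 1 library against 1 and 2 against 2. The same counts were not made over all tested genes. Many of the 25 share reads and all were chosen for 1 cell type, so they are not separate observations. Without the pair, 0 of the 25 genes were called in ileum, and Lyz1 differed by 0.35 ± 0.23 on the log2 scale (adjusted p = 0.95 in edgeR).

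In colon, 0 of the 25 were called between genotypes by edgeR, DESeq2 or limma-voom, beside a background of 0% in edgeR. Slc39a8 was not called there either, at a log2 difference of -1.20. KO libraries lay above all control libraries for 0 of the 25, beside 6.98% of all tested genes. An unadjusted p under 0.05 was found for 4 (Defa32, Defa37, Defa17 and Defa33), beside 2.33% of all tested genes, and KO libraries lay below all control libraries for Defa32, Defa33 and Defa21, beside 5.85% of all tested genes. Defa32 had 0.56, 0.77 and 0.33 CPM in control and 0.24, 0 and 0 in KO, a difference of -2.74 ± 0.81 on the log2 scale (unadjusted p = 0.0058 and adjusted p = 1 in edgeR). Its close copy Defa20 had -0.41 ± 0.71, and the sum of the 2 genes 1.28 ± 0.81 CPM in control and 0.63 ± 0.31 in KO (SD, n = 3). The sum of Defa33 with its close copy Defa2 was 0.81 ± 0.51 CPM in control and 0.80 ± 0.47 in KO. For Defa17 with Defa3 the sums were 0.59 ± 0.41 and 0.23 ± 0.14, and for Defa37 with Defa36 0.47 ± 0.39 and 0.37 ± 0.33. Lower values of single copies in KO therefore partly depend on how reads were divided. In the colonic libraries 3 counts correspond to 0.12 to 0.16 CPM, close to the values of these genes one by one.

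With both tissues in one fit, 0 of 25 genes were called by edgeR, DESeq2 and limma-voom. None of them had an unadjusted p under 0.05, beside 3.87% of all tested genes. Their median difference was -0.16 on the log2 scale. Slc39a8 was not called by edgeR in this fit (log2 difference -1.13, adjusted p = 0.38). Among all genes, DESeq2 called 4 and limma-voom 1. The genotype effect did not differ between colon and ileum for any of the 25 at the threshold. edgeR, DESeq2 and limma-voom each called 0 of 25, beside a background of 0% in edgeR and 1 gene in DESeq2. Defa17, Defa32 and Defa33, 3 genes, had an unadjusted p under 0.05 for this difference, beside 1.02% of all tested genes. No gene of the lists of cryptdin-related genes, other Paneth products or Paneth regulators was called between genotypes in ileum, in colon or over both tissues. In colon, the KO libraries lay wholly above the control libraries for 5 of the 17 regulators and wholly below for 1, and for 2 and 1 of the 13 other products, beside 6.98% above and 5.85% below over all tested genes. An unadjusted p under 0.05 was found for Spdef (log2 difference 0.64 ± 0.21), Bhlha15 (1.34 ± 0.58) and Slc30a2 (-0.95 ± 0.35), each with an adjusted p of 1 in edgeR.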

How the data were processed

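RNA-seq of 12 libraries was analysed, grouped by the tissue, genotype and replicate number of the labels. Expected counts, which estimate the reads of each gene and are not normalized, were deposited by the authors as 1 table. The submitters' processing notes name STAR and mm10, and the study's Reporting Summary uniquely mapped reads, UMI-tools and FeatureCounts. The estimating tool was not given in the sources used here, and the division of reads between near-identical Defa genes is not known. Of the values, 93.7% were whole. The 92 spike-in rows, 0 in every library, were left out.

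Expected counts were rounded. filterByExpr in edgeR 4.0.16 (R 4.3.3) kept 16558 genes, and TMM factors, glmQLFit and glmQLFTest on the 4 groups gave p-values, with Benjamini-Hochberg adjustment over all tested genes and a threshold of 0.1. The genotype effect over both tissues had tissue as an additive term. Standard errors and 95% intervals come from the same fit. Depth was 16749138 to 27903083 counts per library. Counting intervals and floors cover counting error only. If ileum and colon came from the same mice, the fits take as independent what is paired. Symbols were taken from GENCODE M21 for 53620 of 53715 genes, and promoters from RefSeq (GRCm38.p6). The steps were tested on simulated data. Alternatives were DESeq2 1.42.0, limma-voom (limma 3.58.1), other scaling factors, filters and thresholds, counts without rounding, replicate blocks, the compared libraries alone, and libraries left out. Python 3.11.15 with matplotlib 3.10.9 drew the figures.

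The genes and lists were chosen with earlier results of these data known. Named with their values are the 6 granule genes outside the Defa cluster, the 8 Defa genes with the highest mean CPM in ileal control, the 3 with the highest in colon, and, of the lists of cryptdin-related genes, β-defensins, Paneth products and Paneth regulators, the 3 members with the smallest p between tissues in control mice. Markers of other cell types are given mainly as sums. Other Defa genes were named after their values were seen, because they share no window, share most windows with a named gene, or fall into a small count.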

Additional observations from a re-analysis of the deposited data

How the results depend on the processing

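Between tissues, 23 to 25 Paneth granule genes were called in control and 23 to 26 in KO mice under every alternative, and 0 in every genotype comparison, with each library left out in turn included. Scaling by library size alone moved the median of all genes between tissues by 0.22 (control) and 0.27 (KO) on the log2 scale, and by 0.10 between genotypes in colon. It gave 4156 higher and 2102 lower calls among all genes in control and 4637 and 1908 in KO mice, against 2689 and 3251, and 2837 and 3312, with TMM factors. Upper-quartile factors gave 3373 and 2741, and 3678 and 2634. Whether replicate numbers mark the same mouse in both tissues is not known. Deviations of same-numbered ileal and colonic libraries correlated at -0.053, 0.165 and -0.08 in control and 0.192, 0.051 and 0.251 in KO mice, so not every pair passed 0.1, and not every library correlated best with its own number. Same-numbered control and KO libraries ran from -0.69 to 0.40 in ileum. The fits with the replicate block called 23 and 23 granule genes between tissues and 0 in each genotype comparison. With 1 block per mouse, run only between tissues and for the difference of genotype effects, these were 23, 23 and 0. Depth limits the colonic comparisons, and 3 libraries per group those in ileum.

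No granule gene was called between genotypes under any setting. The log2 differences below are those of named genes that changed sign. With limma-voom the values were Lyz1 0.13, Itln1 0.0242, Mptx1 -0.38, Defa2 0.0464, Defa20 0.0492, Defa22 0.0124, Defa33 0.0124 in ileum and Lyz1 0.0193, Defa24 0.0484, Defa20 0.0324, Defa23 0.0099 over both tissues. Without the low-muscle pair the values were Lyz1 0.35, Itln1 0.14, Mptx1 -0.25, Defa2 0.11, Defa20 0.0815, Defa22 0.12, Defa33 0.13, Defa21 0.11, Defa32 0.0547 in ileum and Mptx2 0.0649 over both tissues. With the replicate block the values were Ang4 -0.22, Defa23 -0.0234 in ileum. With upper-quartile factors the values were Defa23 -0.018 in ileum. With the compared libraries alone the values were Defa23 -0.0064 in ileum. With library sizes alone the values were Mptx2 0.0501 over both tissues and Mmp7 0.0237 for the difference between tissues. With no filter on low counts the values were Mptx2 0.0011 over both tissues. With 1 library left out, ranges in ileum were Lyz1 -0.49 to 0.78, Ang4 -0.76 to 0.88, Itln1 -0.67 to 0.71, Mptx1 -1.41 to 1.25, Mptx2 -0.23 to 0.38, Defa24 -0.21 to 0.38, Defa2 -0.45 to 0.51, Defa20 -0.43 to 0.47, Defa23 -0.29 to 0.34, Defa22 -0.43 to 0.46, Defa33 -0.35 to 0.33, Defa21 -0.40 to 0.39, Defa32 -0.37 to 0.13. Ranges in colon were Ang4 -1.78 to 1.45, Defa2 -0.22 to 1.33, Defa20 -0.72 to 0.57. Ranges over both tissues were Lyz1 -0.46 to 0.20, Ang4 -0.72 to 0.65, Itln1 -0.13 to 0.61, Mptx2 -0.32 to 0.29, Defa2 -0.14 to 0.50, Defa20 -0.42 to 0.20, Defa22 -0.54 to 0.13, Defa33 -0.63 to 0.0139. Ranges for the difference between tissues were Lyz1 -1.19 to 0.0696, Mmp7 -0.33 to 0.30, Ang4 -1.82 to 1.40, Itln1 -0.23 to 1.13, Mptx1 -0.23 to 2.42, Defa2 -0.16 to 1.39, Defa20 -0.86 to 0.62.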
